A study of Mus musculus with 4 samples.

Results

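Potassium channels set the resting potential of a cell, bring the membrane back after an action potential and hold back repetitive firing. Their genes carry the prefix Kcn, and 93 gene names with this prefix were found in RNA sequencing values of lumbar cord from G93A mice and their wild type (WT) counterparts. Kcnj10, the main inward rectifier of astrocytes, was set aside, which left 92 names on 129 transcript rows out of 18674 names on 23750 rows. The rows of a name were averaged, and 62 of the 92 names had a mean over the libraries of at least 1 RPKM (a read density scaled to transcript length and library size). G93A mice carry a transgene of human SOD1 with the G93A mutation, an inherited cause of amyotrophic lateral sclerosis (ALS), and lose spinal motor neurons in adult life.

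The data came from 4 libraries, 1 for each genotype given either vehicle or SD, the polyamine spermidine. The vehicle mice received PBS, dosing was 4 times a week for 30 days, and the cord was taken at 100 days of age. Where 4 values stand in a row, the WT libraries come first and the G93A libraries second, each with vehicle before SD. The G93A animals came from a high-expresser line kept on a mixed B6/SJLF1 background, the treatment studies used males, and the transgene runs from the human SOD1 promoter, which is active in many cell types and not in motor neurons alone. The sources used here do not give the number of animals behind a library. With 1 library per condition a difference has no replicate check of its own. No test was run and no p-value is given, and a difference was called at 1.5-fold on the log2(RPKM + 0.1) scale.

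Some background helps to read the gene names. A voltage-gated (Kv) channel is built from 4 alpha subunits, which are encoded by Kcna to Kcnd, Kcnh and Kcnq genes, and beta or accessory subunits (Kcnab, Kcne, Kcnip) change its gating and traffic to the membrane. Silent subunits (Kcnf, Kcng, Kcns, Kcnv) form no channel alone and modify Kv2 channels. Inward rectifiers (Kcnj), leak channels with a pair of pore domains (Kcnk) and channels opened by calcium or sodium (Kcnma, Kcnn, Kcnt) make up the rest. In the cord, Kv1 channels lie beside the nodes of Ranvier, Kv3 channels let neurons fire fast, and microglia and vessel cells use channels of their own.

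The depth was not given and was estimated from the smallest step of the values, which was taken as 1 sequenced fragment (a read or read pair). This gave 36.8 M to 38.6 M fragments a library. For the 62 names at or above 1 RPKM the median was 783 estimated fragments a library, and 61 of them had at least 50 in every library. The marker genes of the tissue were present, with Snap25 at 661 to 1292 RPKM and Mbp at 3575 to 4669 RPKM, and skeletal muscle markers summed to 0.322 to 0.589 RPKM.

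Many potassium channel genes were lower in G93A cord, among them Kcnk9, Kcna2 and Kcnj14, while Kcne1l, Kcns1, Kcnk6, Kcnj2 and Kcnj8 were higher. Between the vehicle libraries, 25 of the 62 names were at least 1.5-fold lower in G93A (40.3%), against 4.34% of all 12987 names with a mean of at least 1 RPKM, and 5 were higher, against 13.1% of all names. Between the SD libraries, 28 were lower, against 7.85% of all names, and 6 were higher, against 15.8%. The vehicle pair and the SD pair share no library, and 19 names were lower in both (3.29% of all names) and 5 higher in both (11.7%). The median log2 fold change of the 62 names was -0.47 in the vehicle pair and -0.50 in the SD pair, beside 0.05 in both pairs over all names. Without a call at 1.5-fold, both G93A libraries lay below both WT libraries for 46 names (32.6% of all names) and above them for 8 names (43.7% of all names).

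**Figure D1:**
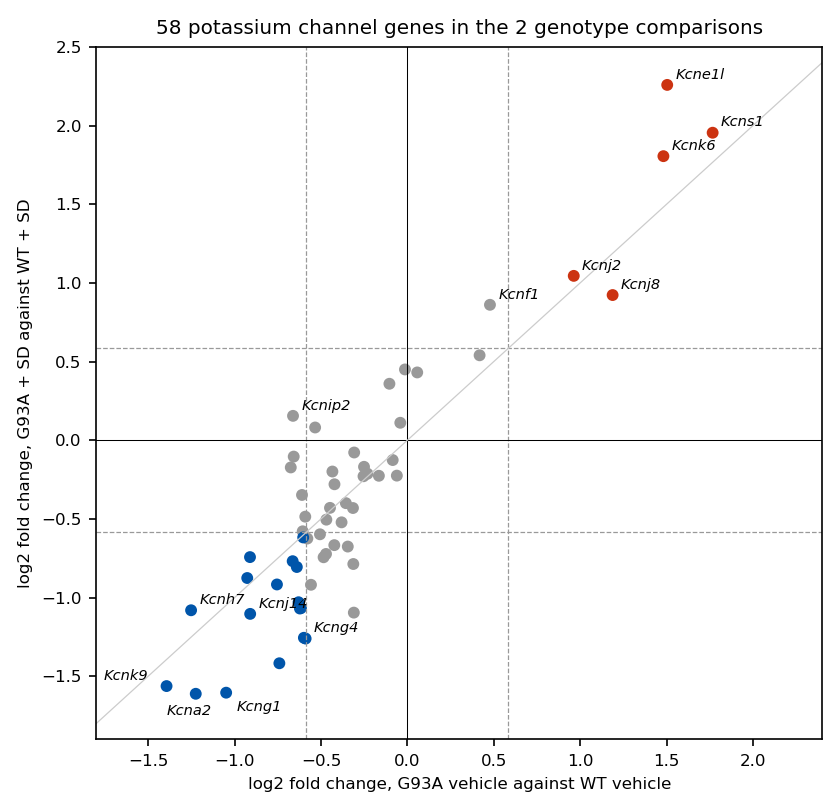
Log2 fold change of 58 of the 62 potassium channel genes in G93A against WT, with the vehicle pair on the x axis and the SD pair on the y axis. Blue points are 17 of the names lower in both pairs, red points the 5 higher in both, grey points the others, and dashed lines mark 1.5-fold. Most points lie in the lower left, and Kcne1l, Kcns1, Kcnk6, Kcnj2 and Kcnj8 stand at the upper right.

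Summed over all 92 names, the level was 908.3 and 909.7 RPKM in the WT libraries and 658.2 and 604.6 RPKM in the G93A libraries. The sum was thus nearly the same in the WT libraries and lower in both G93A libraries. A few abundant names carry much of it, among them Kcnab2, Kcna1, Kcnk1 and Kcnab1 (means of 87.6, 68.5, 39.2 and 38.2 RPKM). At the other end, Kcnk4, Kcnh7 and Kcng1 were just above a mean of 1 RPKM (1.38, 1.36 and 1.13), and Kcnb2, Kcng2 and Kcnh8 just below it (0.980, 0.838 and 0.789). Kcnk4, Kcnh7 and Kcng1 passed only through the WT libraries, where they were higher, and with the minimum set on the G93A libraries 16 names were lower in both pairs.

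The Kv3 genes encode the fast-opening channels of fast-firing neurons. Kcnc4 was at 20.9, 20.1, 13.2 and 11.8 RPKM and was called in both pairs. Kcnc1, at 26.2, 28.2, 17.8 and 14.9 RPKM, was called only in the SD pair, and Kcnc2, at 14.1, 13.8, 9.23 and 9.20 RPKM, only in the vehicle pair, where each missed the other threshold narrowly (log2 fold changes of -0.56 and -0.58). With a pseudocount of 1 RPKM Kcnc2 was called in neither pair.

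Among the Kv1 genes, which encode the channels beside the node of Ranvier and their relatives, the members moved unequally. Kcna2 (Kv1.2, chromosome 3, 107101146 to 107115005 on GRCm38, as all coordinates here) was at 30.9 RPKM in WT vehicle and 33.0 in WT + SD, against 13.2 in G93A vehicle and 10.7 in G93A + SD. This is 2.34-fold and 3.06-fold lower, and the WT and G93A libraries stand far apart. Kcna1 (Kv1.1), its partner in axonal channels, was at 80.4, 84.4, 58.0 and 51.1 RPKM, with log2 fold changes of -0.47 in the vehicle pair and -0.72 in the SD pair. Kcna6 was at 23.6, 24.2, 22.6 and 20.7 RPKM, and 39.6% of its exon bases overlap an RNA of the opposite strand. Whether the authors counted by strand is not given in the sources used here. Kcna3, a channel of T cells and microglia as well as of neurons, was at 1.84, 1.53, 1.13 and 1.42 RPKM and was called lower in the vehicle pair only, though not with a pseudocount of 1 RPKM (-0.42). Kcna4 was lower in the vehicle pair (-0.61), though not with a pseudocount of 1 RPKM, and at -0.35 in the SD pair. Kcna5 was at 1.29 to 1.78 RPKM in every library.

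The Kv beta subunits, which bind Kv1 channels in the cytoplasm, were lower together. Kcnab2, the most abundant of all the names, was at 114 and 110 RPKM in the WT libraries and 73.4 and 53.6 RPKM in the G93A libraries. Kcnab1 was at 47.5, 50.4, 30.8 and 24.0 RPKM. Both were called in both pairs, at 1.54-fold to 2.10-fold lower. Kcnab3, at 30.5, 32.1, 21.8 and 19.1 RPKM, was called in the SD pair, with a log2 fold change of -0.48 in the vehicle pair.

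**Figure D2:**
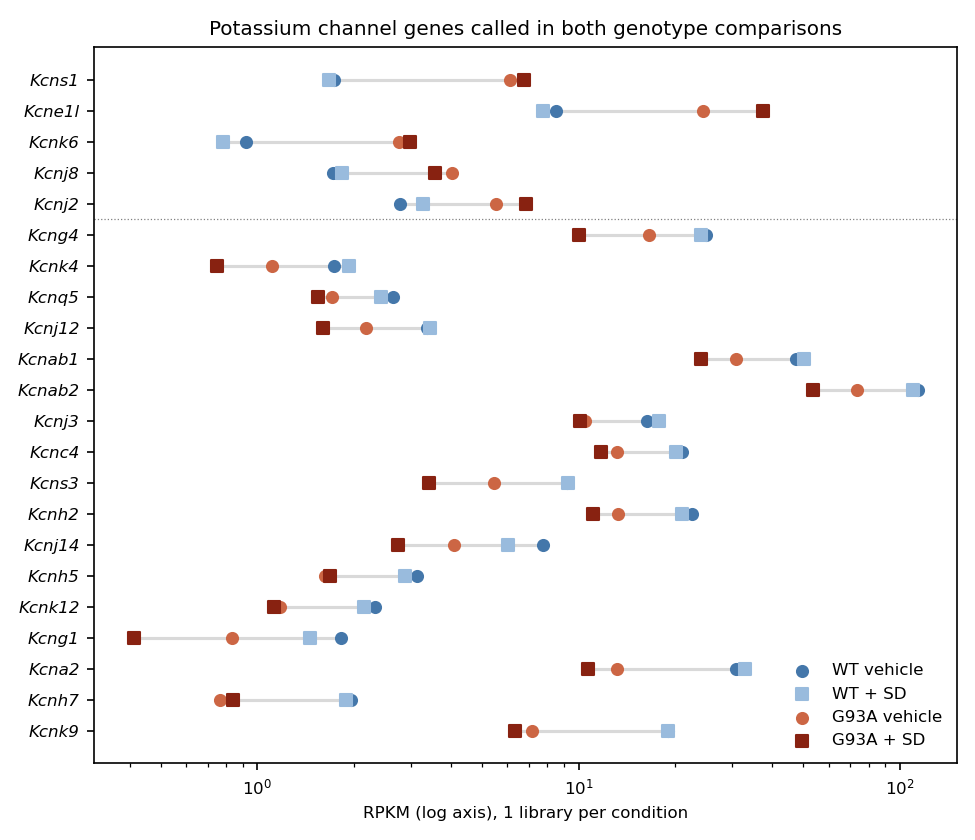
RPKM on a log axis for 22 names called in the same direction in both genotype comparisons, ordered by the log2 fold change of the vehicle pair, with 1 point per library. Circles are vehicle and squares SD libraries, blue shades are WT and red shades G93A, and the dotted line separates the 17 lower from the 5 higher names. WT points stand together to the right of the G93A points below the line and to their left above it.

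Kv7 and ether-a-go-go type channels hold back repetitive firing or shape the end of the action potential. Kcnq5 was at 2.65, 2.42, 1.71 and 1.54 RPKM and was called lower in both pairs, though in neither with a pseudocount of 1 RPKM (-0.43 in each). Kcnq3, a subunit of the M current, was called in neither pair (log2 fold changes of -0.36 and -0.40). Of the ether-a-go-go relatives, Kcnh2 (ERG1) was at 22.5, 20.99, 13.3 and 11.1 RPKM. Kcnh7 (ERG3, chromosome 2, 62693414 to 63184287) was at 1.96 and 1.89 RPKM in the WT libraries and at 0.765 and 0.840 in the G93A libraries, which is 2.38-fold and 2.12-fold lower. Kcnh5 was at 3.15, 2.89, 1.63 and 1.68 RPKM, so that all 3 were called in both pairs (Kcnh5 not in the SD pair with a pseudocount of 1 RPKM, at -0.53). Kcnh1 was called in the SD pair only (-0.67), and not with a pseudocount of 1 RPKM.

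Kv4 channels carry the fast A-type current of dendrites, and the Kcnip proteins bind them. None of the 3 Kv4 genes was called in either pair, and Kcnd2, the most abundant, was at 16.2, 17.6, 13.6 and 15.0 RPKM, with Kcnd3 at 5.37 to 6.66 and Kcnd1 at 2.79 to 4.90 RPKM. Kcnip4 was at 23.1, 23.1, 16.9 and 17.1 RPKM with log2 fold changes of -0.45 and -0.43, and was not called. Kcnip2 was called lower in the vehicle pair (-0.66), though not with a pseudocount of 1 RPKM. It had the opposite sign in the SD pair (0.16), so its libraries overlap. Kcnip1 (13.2 to 17.9 RPKM) and Kcnip3 (11.6 to 15.9 RPKM) were called in neither pair.

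Kv2 channels gather in clusters opposite the cholinergic C-bouton synapses of motor neurons. Kcnb2 stood just under the mean of 1 RPKM, with log2 fold changes of -0.72 and -0.69. The silent subunits that modify Kv2 went both ways.

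Kcng4 (Kv6.4), a marker of fast motor neurons, was at 25.0 and 24.1 RPKM in the WT libraries and 16.6 and 9.998 RPKM in the G93A libraries. Kcns3 was at 9.21, 9.29, 5.47 and 3.41 RPKM. Kcng1 was at 1.83, 1.46, 0.832 and 0.412 RPKM, with 36.8 estimated fragments in G93A + SD, the fewest of any of the 62 names. All 3 were called lower in both pairs, Kcng4 only just so in the vehicle pair (1.504-fold, and not called with a pseudocount of 1 RPKM, at -0.56), and had their lowest value in G93A + SD. Kcns1 (Kv9.1, chromosome 2, 164163619 to 164171113), known from myelinated sensory neurons, went the other way with 1.73 and 1.67 RPKM in the WT libraries and 6.12 and 6.75 RPKM in the G93A libraries. This is 3.40-fold and 3.88-fold higher, from 173 estimated fragments in each WT library to 631 and 707. Kcnf1 was called higher in the SD pair (0.86) and was at 0.48 in the vehicle pair, and Kcns2 was called lower in the vehicle pair (-0.59) and was at -0.49 in the SD pair. With a pseudocount of 1 RPKM neither was called in either pair.

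**Figure D3:**
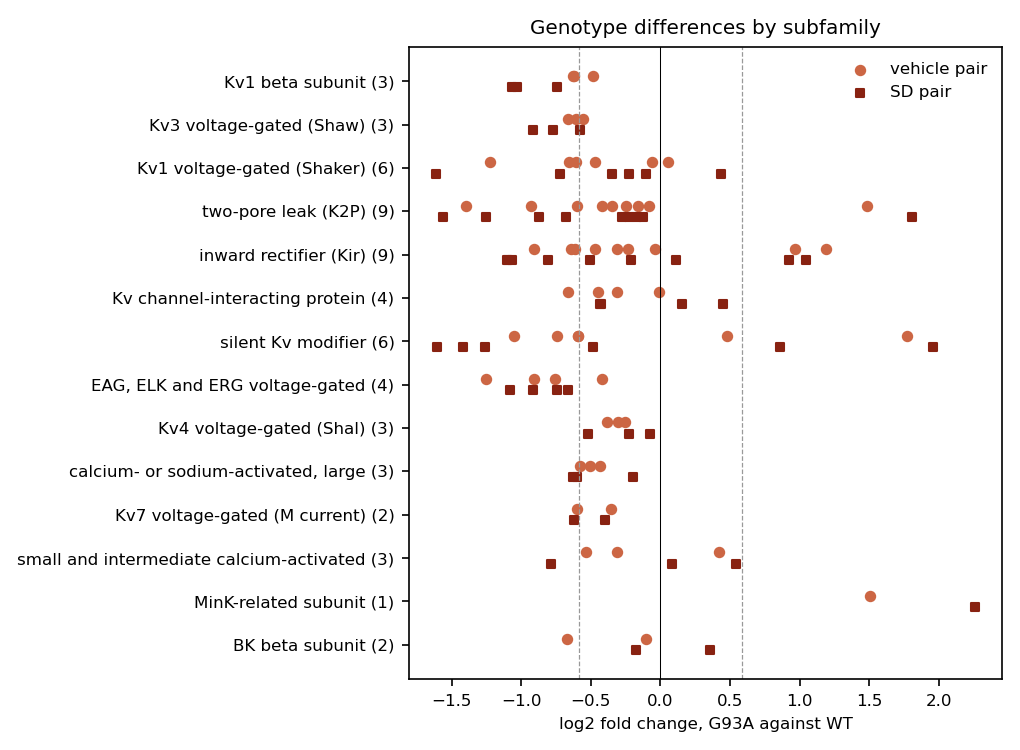
Log2 fold change of 58 of the 62 names in G93A against WT by subfamily, with circles for the vehicle pair and squares for the SD pair, dashed lines at 1.5-fold and the number of names drawn in brackets. Subfamilies are ordered by their summed RPKM in WT vehicle, highest at the top. All Kv3 and Kv beta points lie left of 0, the Kv4 points lie within the dashed lines, and the inward rectifiers, leak channels and silent subunits have points on both sides.

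The leak channels (K2P), which set the resting potential, had names in both directions. Kcnk9 (TASK-3, chromosome 15, 72501089 to 72546340), an acid-sensitive leak channel of neurons, was at 18.9 RPKM in WT vehicle and 19.0 in WT + SD, against 7.15 in G93A vehicle and 6.36 in G93A + SD. At 2.63-fold lower it was the lowest of the 62 names in the vehicle pair, and it was 2.96-fold lower in the SD pair. Its relative Kcnk3 (TASK-1) was at 8.71, 8.001, 6.84 and 4.97 RPKM and was called only in the SD pair. Kcnk12 was at 2.32 and 2.15 RPKM in the WT libraries and at 1.17 and 1.12 in the G93A libraries, and Kcnk4 (TRAAK) at 1.73, 1.93, 1.11 and 0.749 RPKM. Both were called in both pairs, but with a pseudocount of 1 RPKM Kcnk12 was not called in the SD pair (-0.57) nor Kcnk4 in the vehicle pair (-0.37), and Kcnk4 shares 13.2% of its exon bases with Catsperz on the same strand.

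Kcnk6 (TWIK-2, chromosome 7, 29221926 to 29232515), a leak channel that macrophages use when the inflammasome is activated, was at 0.922 and 0.781 RPKM in the WT libraries and 2.75 and 2.98 RPKM in the G93A libraries. It was 2.79-fold and 3.50-fold higher (log2 fold changes of 1.48 and 1.81, and of 0.97 and 1.16 with a pseudocount of 1 RPKM). It reached a mean of 1 RPKM only through the G93A libraries. Kcnk13 (THIK-1), the resting leak channel of microglia, was not higher in G93A, at 9.83, 9.01, 8.24 and 8.001 RPKM. Kcnk1 was at 39.0, 44.8, 34.8 and 38.2 RPKM, and neither was called in any pair. Nor were Kcnk2, at 5.47 to 7.15 RPKM, and Kcnk10, at 1.81 to 2.46 RPKM.

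Of the inward rectifiers, Kcnj3 (GIRK1), Kcnj12 and Kcnj14 were lower in both pairs and Kcnj2 and Kcnj8 higher in both. Kcnj3, a subunit of the channels opened by G protein-coupled receptors, was at 16.3, 17.7, 10.4 and 10.1 RPKM, and 31.1% of its exon bases overlap an RNA of the opposite strand. Kcnj14 (Kir2.4), known from motor nuclei, was at 7.76, 6.02, 4.08 and 2.75 RPKM, and Kcnj12 (Kir2.2) at 3.38, 3.45, 2.17 and 1.60 RPKM. With a pseudocount of 1 RPKM Kcnj12 was not called in the vehicle pair (-0.47). Kcnj2 (Kir2.1, chromosome 11, 111066164 to 111076821), an inward rectifier that microglia also carry, was at 2.78 and 3.28 RPKM in the WT libraries and 5.52 and 6.87 RPKM in the G93A libraries. Kcnj8 (Kir6.1, chromosome 6, 142564837 to 142571614), the ATP-sensitive channel of pericytes, was at 1.72, 1.83, 4.04 and 3.56 RPKM. The G93A libraries thus lay 1.90-fold to 2.28-fold above WT for these 2 genes. Kcnj11 (Kir6.2), the ATP-sensitive channel of neurons, was at 6.89, 9.66, 5.54 and 4.46 RPKM and was called in the SD pair only. Kcnj6 (GIRK2), at 1.21 to 1.79 RPKM, and Kcnj9 (GIRK3), at 4.35 to 6.41 RPKM, were called in neither pair. Kcnj16, which pairs with Kcnj10 in glia, was level at 24.9, 25.7, 24.2 and 27.8 RPKM.

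Kcne1l (also named Kcne5, chromosome X, 142304752 to 142306294), an accessory subunit of Kv channels, had the greatest value in the SD pair. It was at 8.51 and 7.76 RPKM in the WT libraries and 24.3 and 37.5 RPKM in the G93A libraries. This is 2.84-fold and 4.79-fold higher, with 458 estimated fragments in WT + SD and 2236 in G93A + SD, and no other annotated gene shares its exons. The other Kcne names were under 1 RPKM in every library.

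Of the channels opened by calcium or sodium and their beta subunits, Kcnmb2 was called lower in the vehicle pair and Kcnt1, Kcnma1 and Kcnn1 in the SD pair. Kcnt1 (Slack), opened by sodium, was at 16.8, 15.8, 11.8 and 10.4 RPKM, and with a pseudocount of 1 RPKM it was not called in the SD pair (-0.56). Kcnma1, the BK channel, had log2 fold changes of -0.58 and -0.62, and with a pseudocount of 1 RPKM it was called in neither pair. Kcnt2 was at 1.996 to 2.73 RPKM and was called in neither pair. Kcnmb4, the neuronal BK beta subunit, was at 6.78, 5.08, 6.30 and 6.54 RPKM, with 31.5% of its exon bases overlapping RNAs of the opposite strand. Kcnmb2 was at -0.68 in the vehicle pair and -0.17 in the SD pair, and with a pseudocount of 1 RPKM it was called in neither. Kcnn2 (SK2) and Kcnn3 (SK3) carry the afterhyperpolarization of motor neurons. Kcnn2 was at 11.3, 7.28, 7.77 and 7.70 RPKM, so that only WT vehicle stood apart, and Kcnn1 (SK1) was at -0.79 in the SD pair and -0.31 in the vehicle pair. Kcnn3 was at 2.11 and 2.25 RPKM in the WT libraries and at 2.85 and 3.32 in the G93A libraries, which is above WT without reaching 1.5-fold in either pair.

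Of the 30 names with a mean below 1 RPKM, 3 were higher at 1.5-fold in both genotype comparisons, against 11.2% of all 5687 names below 1 RPKM, and 1 was lower in both, Kcnb2, against 2.29%. Apart from Kcnn4 and Kcnb2 they are named after their values were seen. Kcnn4 (KCa3.1), the intermediate calcium-activated channel of microglia and lymphocytes, was at 0.0871 and 0.128 RPKM in the WT libraries and 0.559 and 0.538 RPKM in the G93A libraries. These are 6.31, 9.64, 41.8 and 40.9 estimated fragments, and with a pseudocount of 1 RPKM it was called in neither pair. Kcnj5 was at 0.169, 0.208, 0.684 and 0.515 RPKM, and Kcnj4 at 0.0746, 0.0607, 0.214 and 0.217 RPKM. In 1 genotype pair only, Kcnv1, Kcnh6 and Kcng3 were lower in the vehicle pair (-1.06, -0.70 and -0.69). For Kcng3 this rests on 14.35 estimated fragments in WT vehicle and 4.38 in G93A vehicle. Kcnk7 and Kcne2 were higher in the SD pair only (1.55 and 0.90). Both were also lower with SD in WT (-0.67 and -0.75), and these calls rest on 2.20 and 0.999 estimated fragments in the WT + SD library. Kcna10 was called in the same 2 comparisons and is listed at 0 RPKM in the WT + SD library, against 0.0595, 0.0360 and 0.0851 RPKM in WT vehicle, G93A vehicle and G93A + SD. With SD in G93A, Kcnv1 was higher (0.67) and Kcnh4 lower (-0.62). The others below 1 RPKM were Kcng2, Kcnh8, Kcnu1, Kcnk5, Kcne4, Kcnrg, Kcnh3, Kcnq1ot1, Kcnq1, Kcnmb1, Kcnj13, Kcne3, Kcnk16, Kcnk15, Kcnj15, Kcnv2, Kcne1, Kcna7 and Kcnk18, from 0.838 RPKM down to 0.000228 RPKM. Among them, Kcnq1ot1 is a noncoding RNA of the Kcnq1 locus and Kcnrg a regulator of Kv channels, and neither is a channel subunit.

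Upstream sequences are shown for 5 of the names called in both genotype comparisons, 3 higher and 2 lower ones, so that both directions can be read side by side. They were taken from names with a single promoter entry whose window lies outside the annotated gene. Each is the 250 bases before the RefSeq start on GRCm38.p6, 5′ to 3′ on the strand of the gene. The windows are chr2:164171114-164171363 for Kcns1 (minus strand), chr11:111065914-111066163 for Kcnj2 (plus), chr6:142571615-142571864 for Kcnj8 (minus), chr8:119635681-119635930 for Kcng4 (minus) and chr17:87797995-87798244 for Kcnk12 (minus). Capitals mark GAGGAA on either strand, the core that the myeloid factor PU.1 and other ETS factors bind.
Kcns1: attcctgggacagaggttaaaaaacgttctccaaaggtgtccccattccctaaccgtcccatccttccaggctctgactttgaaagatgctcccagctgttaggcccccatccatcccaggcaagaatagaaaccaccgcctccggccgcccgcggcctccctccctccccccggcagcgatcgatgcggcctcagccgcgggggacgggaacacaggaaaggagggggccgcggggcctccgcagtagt
Kcnj2: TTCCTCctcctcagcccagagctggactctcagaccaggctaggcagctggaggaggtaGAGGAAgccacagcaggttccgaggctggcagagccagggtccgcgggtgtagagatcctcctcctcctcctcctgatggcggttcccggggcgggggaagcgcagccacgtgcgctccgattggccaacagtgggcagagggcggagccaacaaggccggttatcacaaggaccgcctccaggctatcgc
Kcnj8: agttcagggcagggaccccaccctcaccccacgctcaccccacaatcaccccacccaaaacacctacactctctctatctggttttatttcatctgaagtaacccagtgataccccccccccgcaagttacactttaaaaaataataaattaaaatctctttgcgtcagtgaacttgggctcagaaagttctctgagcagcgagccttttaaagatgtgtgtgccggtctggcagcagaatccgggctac
Kcng4: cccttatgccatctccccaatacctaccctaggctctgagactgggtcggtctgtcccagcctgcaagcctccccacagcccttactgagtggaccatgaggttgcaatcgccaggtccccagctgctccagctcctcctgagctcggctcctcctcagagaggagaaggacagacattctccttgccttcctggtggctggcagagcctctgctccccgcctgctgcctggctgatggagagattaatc
Kcnk12: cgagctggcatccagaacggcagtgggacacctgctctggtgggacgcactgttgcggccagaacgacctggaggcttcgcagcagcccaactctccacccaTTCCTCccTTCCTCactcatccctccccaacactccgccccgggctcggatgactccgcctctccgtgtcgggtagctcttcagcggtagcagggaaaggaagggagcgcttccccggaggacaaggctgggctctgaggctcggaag

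GAGGAA occurred 2 times each before Kcnj2 and Kcnk12, a higher and a lower name, and not in the other 3 windows. Over the 68 windows of the 45 names at or above 1 RPKM that have an entry, 27.9% held it, beside 23.3% of all 32851 windows in the table. The STAT-type motif TTCNNNGAA occurred in 10.3% and 7.02% of these windows. TTCAGCACC, a part of the element bound by the neuronal repressor REST, was in 0 of the 68 windows and in 0.301% of all, and the TATA box TATAAA in 2.94% and 12.4%. Both strands were searched, and a TTCNNNGAA match with GAG in its middle also holds GAGGAA. The upstream windows of the channel genes had a median GC content of 59.0%, beside 52.4% over all windows.

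Cell type markers moved with these groups. Of 10 neuron markers in the table, 4 were lower and 0 higher at 1.5-fold in the vehicle pair (median log2 fold change of -0.51), and 5 were lower in the SD pair (-0.66). Their sum was 1978.0 and 1978.7 RPKM in WT and 1295.5 and 1127.5 RPKM in G93A. Of 6 motor neuron markers at or above 1 RPKM, 3 were lower in the vehicle pair and 5 in the SD pair, and Chat, which makes acetylcholine, was at 9.83, 8.57, 6.55 and 4.33 RPKM. In bulk cord, fewer cells of a type and less RNA per cell cannot be told apart. Relative to the neuron list, 28 of the 62 channel names were below its median in the vehicle pair and 25 in the SD pair. Below the lowest neuron marker, the glycine transporter gene Slc6a5 (-1.09 and -1.52), were Kcna2 and Kcnk9 in both pairs. Kcnh7 in the vehicle pair and Kcng1 in the SD pair also were, but they passed the minimum only through the WT libraries and were at -0.75 and -0.80 with a pseudocount of 1 RPKM. On the motor neuron list, Chodl (-1.50 and -1.97) lay below all 62 channel names in both pairs, and Nefh was at -1.03 and -1.66.

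Markers of other cells were higher beside the channel genes that were higher. Of 10 microglia and macrophage markers, 8 were higher in the vehicle pair and 9 in the SD pair, and their sum was 87.8 and 79.8 RPKM in the WT libraries and 484 and 486 in the G93A libraries. Of 7 astrocyte markers, 4 and 5 were higher. The endothelium and pericyte markers, which bear on Kcnj8, summed to 46.6 to 57.0 RPKM, with 0 of 7 higher in either pair and 1 lower in the SD pair, and of its pericyte genes Rgs5 was at 22.7, 19.5, 22.4 and 20.5 RPKM (-0.02 and 0.07), Pdgfrb at 2.89, 2.28, 3.61 and 3.45 RPKM (0.31 and 0.58) and Abcc9, the usual partner of Kir6.1, at 2.02, 2.64, 1.99 and 1.74 RPKM (-0.02 and -0.58). Oligodendrocyte markers had medians of -0.23 and -0.38, with 0 and 1 of 7 lower at 1.5-fold. Schwann cell markers summed to 0.374 to 1.41 RPKM, and ependyma and choroid plexus markers to 9.15 to 14.1 RPKM. The part of these cell types in the channel values was not tested.

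Partners of potassium channels whose names do not start with Kcn were counted beside them. Of 20 such genes at or above 1 RPKM, 1 was lower in the vehicle pair, Cntnap2, which holds Kv1 channels beside the node (19.0, 19.4, 11.8 and 12.1 RPKM), which is near the 4.34% of all names, and 7 were lower in the SD pair, against 7.85% of all names (among them Cntnap2, Abcc8 and Hcn4). Their medians were -0.33 and -0.51. Lrrc55, a BK gamma subunit, was the only one called higher, in the SD pair (5.55, 5.13, 8.35 and 9.18 RPKM), at 0.58 in the vehicle pair. Dpp6, the Kv4 partner, was at 49.9, 47.7, 35.4 and 34.3 RPKM.

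Few of these genes differed at 1.5-fold between SD and vehicle. In WT, 1 of the 62 names was lower with SD, Kcnn2 (log2 fold change of -0.63), against 1.16% of all names, and 0 were higher, against 0.732%. In G93A, 3 names were lower with SD, against 0.932% of all names, and 1 was higher, against 1.24%. The lower ones were Kcng1 (-0.86), Kcng4 (-0.72) and Kcns3 (-0.67), and the higher one was Kcne1l (0.62). With a pseudocount of 1 RPKM, only Kcng4 stayed lower in G93A and Kcnn2 was not called in WT. Of the 6 motor neuron markers, 3 were lower with SD in G93A, with a median of -0.52, which moves with Kcng4, and its part was not tested. The medians of the 62 names were -0.04 in WT and -0.06 in G93A, beside 0.01 or 0.02 over all names.

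**Figure D4:**
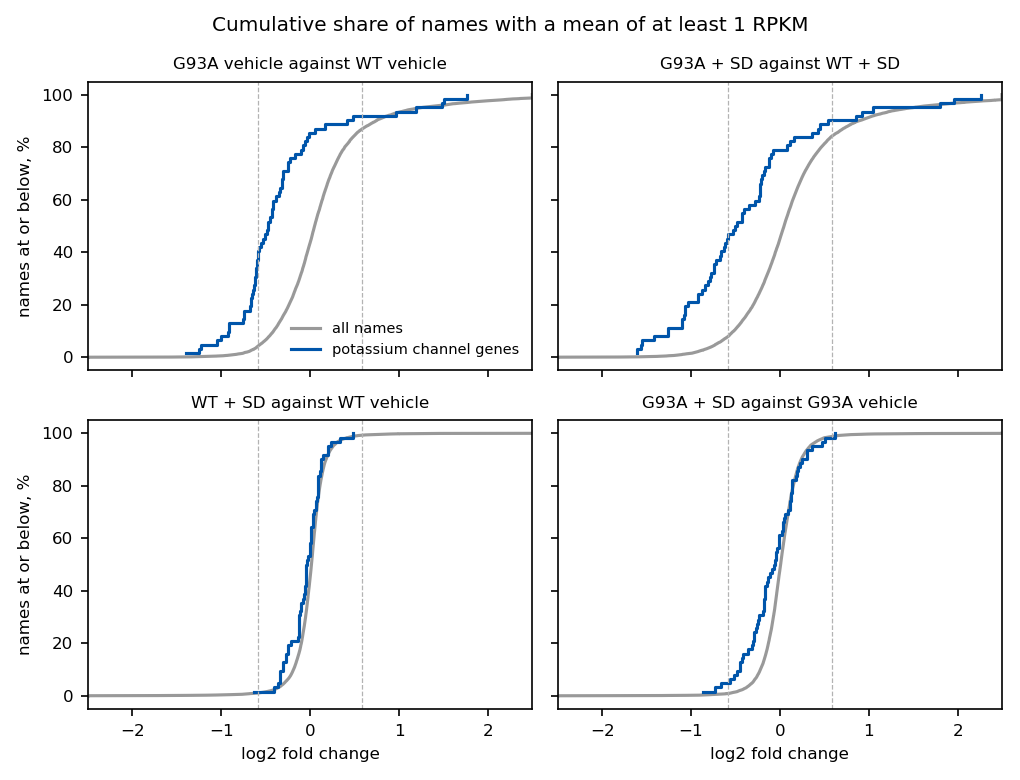
Cumulative share of names at or below each log2 fold change in the 4 comparisons, for the 62 potassium channel genes (blue steps) and all 12987 names with a mean of at least 1 RPKM (grey), with dashed lines at 1.5-fold and all-name values limited to 2.5 either way. In both G93A against WT panels the blue curve lies left of the grey one over the lower and middle shares and meets it at the upper end, and the curves run close together in both SD against vehicle panels.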

How the data were processed

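Poly(A) RNA of lumbar spinal cord was sequenced by the authors as 53 base reads with paired-end adaptors. Their methods and processing notes name STAR with GRCm38 (mm10) and HTSeq on an Ensembl gene set, yet the deposited table lists RefSeq transcripts. The values deposited by the authors were taken as RPKM, inferred from their sums after multiplying by transcript length. All 4 per-sample columns were used, and the authors' own ratio columns were not.

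Rows were averaged by name, members were names starting with Kcn except Kcnj10, and a call was a ratio of at least 1.5 with a pseudocount of 0.1 RPKM among names with a mean of at least 1 RPKM. With 1 library per condition no test was run. A few genes, though counted, are not reported here by name. Members and lists were chosen with earlier results of these data known. Named were members called in both genotype comparisons, in an SD comparison, the 10 highest, the highest of each subfamily and 13 channels of known cell types, and others to complete a subfamily. Rbfox3, Ncmap and Epb41l3 of the lists had no row under these names. Exon overlaps and coordinates came from GENCODE M21, promoter windows from RefSeq. Estimated fragments came from the smallest step of low values times transcript length, found for 122 of 129 member rows, and have no interval.

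The alternatives were pseudocounts of 0 and 1, median-ratio scaling, the highest row of a name, means of at least 0.1 and 5 and no filter, and 2-fold. Calls under filters on the WT or the G93A libraries alone were added after seeing the data. The tools were numpy 2.4.6, matplotlib 3.10.9 and pandas 2.3.3 under Python 3.11.15. The code for the calls was run on simulated data with planted changes larger than 1.5-fold. This does not show how sure a 1.5-fold call from single libraries is.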

Additional observations from a re-analysis of the deposited data

How the results depend on the processing

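The genotype comparison was made in 2 treatment-matched pairs, vehicle and SD, whose values are given side by side, and no fit over both pairs was run. Of 140 counts and medians recomputed under the alternatives, 110 stayed within 1.5 times the count or 0.1 of the median. A change of direction was defined only for the medians of the vehicle pair and the SD pair. These stayed negative wherever they were recomputed. With a pseudocount of 1 RPKM, 15 names were lower in the vehicle pair, 22 in the SD pair and 13 in both, and 5 were higher in the SD pair. In WT with SD 0 were lower, and in G93A with SD 1. With a mean of at least 0.1 RPKM, 8 names were higher in the vehicle pair, 10 in the SD pair and 8 in both, 2 were lower in WT with SD, 2 were higher in G93A with SD, and the SD pair median was -0.34. With no filter these were 8, 12, 8, 4 and 2, with medians of -0.35 and -0.23 in the vehicle and SD pairs. With a mean of at least 5 RPKM, which left 35 names, 13 were lower in the vehicle pair and 12 in both, 1 was higher in each pair and in both, and the medians were -0.625 in the SD pair and -0.165 for SD in G93A. At 2-fold, 5 were lower in the vehicle pair, 13 in the SD pair and 5 in both, 3 were higher in both, and 0 were called with SD in either genotype. Median-ratio scaling and the highest row of a name moved no count by over 1.5 times. The genotype values of single genes were recomputed for the 40 names that the naming rule chose. For the others in the text, only the loss of a call with a pseudocount of 1 RPKM is given. Over the 80 values of the 40 names, a pseudocount of 1 RPKM ended 11 calls, those of Kcnq5 and Kcnn4 in both pairs, of Kcna3, Kcng4, Kcnj12 and Kcnk4 in the vehicle pair and of Kcnh5, Kcnk12 and Kcnt1 in the SD pair, and scaling added Kcnc1 and Kcnn2 in the vehicle pair. The cause of these shifts was not tested, apart from the number of names each filter keeps. With a mean of at least 1 RPKM in the WT libraries 20 names were lower and 4 higher in both pairs, and in the G93A libraries 16 and 5. Values under 1 RPKM on short transcripts rest on few reads, and no condition has a second library.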
